A study of Mus musculus with 6 samples.

Results

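The 40 genes of the mouse whose symbol names a collagen alpha chain (Col, a type number, the letter a and a chain number) are described here, out of 17551 genes in a table of RNA-seq read counts. They were taken by symbol alone, but with earlier results of these data known. They were grouped as 11 fibrillar chains (types I, II, III, V, XI, XXIV and XXVII), 8 basement membrane chains (types IV, XV and XVIII), 5 chains of collagen VI and 16 others. The RNA came from neurospheres, spheres of neural stem cells and progenitors that grow in suspension, of a C57BL/6 background, grown in DMEM/F12 with EGF and FGF at 20 ng/ul each. There were 3 libraries with the genotype ACVR1 G328V, called G328V here and NPAC in the series, and 3 libraries with the genotype ACVR1 WT, called WT here and NP in the series. The mutation replaces a glycine by a valine in ACVR1, one of the type I receptors through which bone morphogenetic proteins (BMPs) signal. The labels do not spell out the letters NPAC and NP, so any other alteration that the groups share or differ in is not stated here, and the age and number of the animals are not given. The series calls the 3 libraries of each genotype biological replicates, but nothing in the labels ties them to separate animals. Each p-value reflects only how far these samples spread, and whether that is the spread between animals is not known. The comparison asks how collagen transcripts differ between neurospheres with mutant and with wild-type ACVR1.

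Collagens are secreted or membrane proteins whose alpha chains wind into triple helices built on a repeat of glycine and 2 further residues. Fibrillar collagens bundle into fibrils, collagen IV forms the network of basement membranes, and collagens XV and XVIII are proteoglycans of basement membranes whose C-terminal ends can be released as endostatin-like fragments. Collagen VI forms beaded filaments around cells, FACIT collagens attach to fibril surfaces, and others are anchoring, network-forming or membrane-spanning. In the brain most fibrillar collagen belongs to meninges and vessels, while neural stem cells are in contact with basement membrane material of the vessel wall.

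The libraries held 115953495 to 191115532 counts, at which 3 counts correspond to 0.0163 to 0.0249 CPM (CPM as edgeR defines it, on TMM-scaled library sizes). Acvr1 itself measured 244, 250 and 650 CPM (G328V replicates 1, 2, 3) against 42.4, 100.05 and 90.7 CPM (WT replicates 1, 3, 70A), so the groups did not overlap. Xist, the RNA of the inactive X chromosome, was at 443 to 795 CPM (G328V) against 0.25 to 1.18 CPM (WT), so sex-linked expression and genotype cannot be told apart in any value below. The neurosphere markers Sox2, at 134 to 237 CPM, and Vim, at 1718 to 3189 CPM, were present in every library, whereas Sox1 had 0 counts in WT replicate 3 and 7 in WT replicate 70A. Of that list Prom1 did not overlap and was higher in the mutant libraries (133 to 288 CPM, WT 7.92 to 68.8 CPM), and Sox9 did not overlap and was lower (33.2 to 80.1 CPM, WT 109 to 151 CPM). These were 2 of 8 genes of the list (25%), where 9.70% of all tested genes did not overlap. The 45S ribosomal RNA precursor Rn45s, which ribosomal depletion removes in part, measured 31375 to 42301 CPM in G328V against 51337 to 113683 CPM in WT, and its part in the values below was not tested. The sum of the endothelial markers was highest in WT replicate 70A (39.5 CPM, of which Cdh5 38.7 CPM, with Pecam1 at 0.132 CPM, and 1.52 to 22.9 CPM in the other libraries). The sum of the mural markers was highest in G328V replicate 3 (299 CPM, nearly all Rgs5, with Acta2 at 0 counts, and 0.608 to 8.20 CPM in the other libraries). Of the neural crest and Schwann genes, Sox10 and Erbb3 were highest in G328V replicate 1, whereas Ngfr was highest in WT replicate 3, with 4758 counts against 2731 in G328V replicate 1. Fibroblast and meningeal genes summed to 168 to 669 CPM in G328V and 320 to 374 CPM in WT, with Prrx1 at 51.7 to 455 CPM and the fibroblast matrix genes Dcn and Lum at no more than 1.36 CPM anywhere. Foxc1, a meningeal factor of that list, did not overlap, at 64.4 to 112 CPM (G328V) against 15.6 to 36.8 CPM (WT). It was 1 of 7 tested genes of the list (14.3%, beside 9.70% of all tested genes). Microglial and leukocyte genes summed to no more than 2.15 CPM.

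The start sites of the chains on which the results turn are shown first, because Col18a1 and Col15a1 are the closest relatives among the basement membrane chains and have estimates of opposite sign, neither past the test, and because Col4a1 and Col4a2 are transcribed away from a shared start region. RefSeq windows of 300 bases (GRCm38.p6, 250 before and 50 from the start on, 5′ to 3′ on the gene's strand) were available for 32 of the 40 genes. Capitals mark matches on either strand to GGCGCC, the GC-rich element that BMP SMADs can bind, to GGGCGG, the GC box, or to CAGAC, which holds the core SMAD-binding letters. Col18a1 has 2 annotated starts, at chr10:77166481-77166780 and chr10:77113656-77113955 on the minus strand. Col15a1 starts in chr4:47207762-47208061 on the plus strand, and Col4a2 in chr8:11312555-11312854 on the plus strand. The GENCODE M21 annotation starts Col15a1 at 47208161, past the end of the RefSeq window shown.
Col18a1, upstream start: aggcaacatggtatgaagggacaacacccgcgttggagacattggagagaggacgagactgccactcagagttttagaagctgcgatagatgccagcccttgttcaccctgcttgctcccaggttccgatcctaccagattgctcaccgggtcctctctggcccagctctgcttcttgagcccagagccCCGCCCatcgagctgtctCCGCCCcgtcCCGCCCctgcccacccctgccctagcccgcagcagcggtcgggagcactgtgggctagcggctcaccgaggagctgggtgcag
Col18a1, downstream start: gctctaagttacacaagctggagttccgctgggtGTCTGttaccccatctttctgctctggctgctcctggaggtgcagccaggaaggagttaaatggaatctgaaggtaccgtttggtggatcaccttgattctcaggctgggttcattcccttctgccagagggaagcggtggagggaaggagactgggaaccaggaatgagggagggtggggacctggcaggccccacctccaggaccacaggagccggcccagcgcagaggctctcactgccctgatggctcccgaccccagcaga
Col15a1: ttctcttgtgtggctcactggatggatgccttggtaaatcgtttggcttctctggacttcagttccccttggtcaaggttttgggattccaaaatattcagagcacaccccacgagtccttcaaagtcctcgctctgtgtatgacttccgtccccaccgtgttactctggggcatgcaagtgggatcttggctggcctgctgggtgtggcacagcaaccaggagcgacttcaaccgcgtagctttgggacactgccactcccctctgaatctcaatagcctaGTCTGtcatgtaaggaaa
Col4a2: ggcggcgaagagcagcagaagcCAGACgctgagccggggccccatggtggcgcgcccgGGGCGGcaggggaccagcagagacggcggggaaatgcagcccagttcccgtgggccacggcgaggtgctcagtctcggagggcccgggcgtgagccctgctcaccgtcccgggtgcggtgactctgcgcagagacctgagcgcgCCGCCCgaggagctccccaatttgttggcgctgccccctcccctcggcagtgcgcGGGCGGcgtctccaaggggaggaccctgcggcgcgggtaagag

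The upstream Col18a1 window held 3 GC boxes and no match to either SMAD-related motif, and its downstream window held 1 CAGAC match, as did the Col15a1 window. The Col4a2 window held 3 GC boxes and 1 CAGAC match. The last 78 bases of the Col4a2 window, chr8:11312777-11312854, also lie in the Col4a1 window, and the annotated starts of both genes are 21 bases apart on opposite strands. Over 35 windows of collagen genes, GGCGCC was present in 11.4% and CAGAC in 51.4%, against 11.9% and 49.6% of 32851 windows of all genes. GC boxes were present in 62.9% of collagen windows and 35.7% of all windows, where the median GC content was 59.7% and 52.7%. A match describes letters only and shows no binding.

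In every library a few chains made up most of the collagen level per length, that is counts per kilobase of merged exons scaled to the same sum in every library (a level, used to compare genes with each other). Col18a1, the chain of collagen XVIII, had the highest mean of the 40 genes at 449, followed by Col4a2 at 138 and Col4a1 at 137, the chains of the common collagen IV network. It led in 5 of the 6 libraries, with 23.3% to 71.0% of the collagen level there, and Col4a2 led in G328V replicate 3 with 26.7%. The 5 leading chains held 63.95% of the collagen level in G328V replicate 1 and 78.8% to 90.2% in the other libraries. Col1a1 and Col1a2, which form collagen I, the main collagen of connective tissue, were at means of 1.94 to 3.09 and 0.0977 to 0.167 CPM in the groups. In all, 16 chains averaged at least 10 CPM over the libraries, and 11 stayed under 1 CPM in every one.

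**Figure D1:**
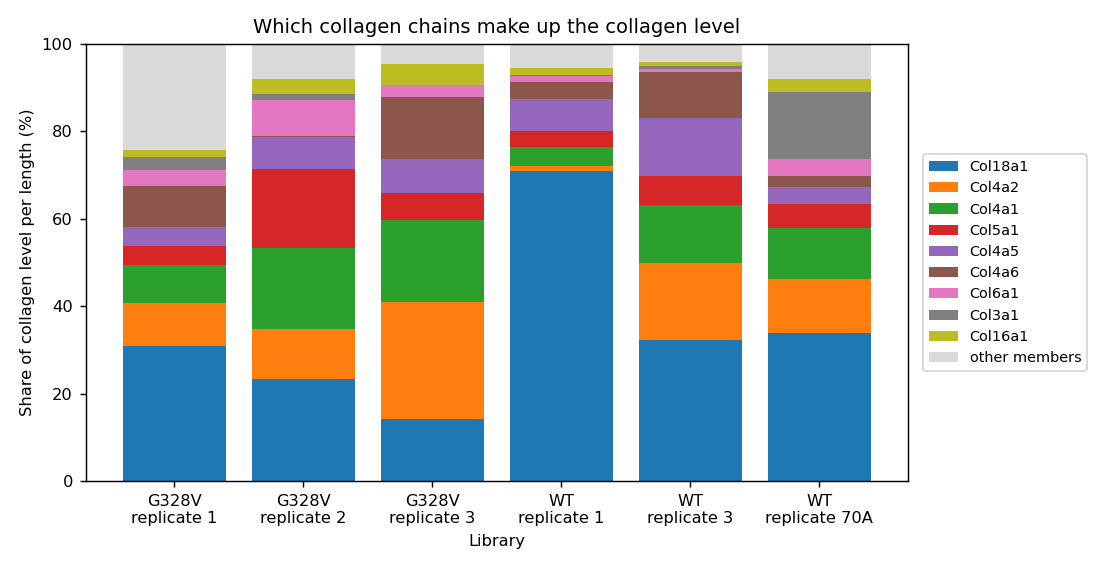
Share of the summed collagen level per length (vertical axis, percent) taken by each of the 9 chains with the highest mean share and by all other members, in each of the 6 libraries (horizontal axis). Col18a1 takes 71.0% in WT replicate 1 and 14.3% in G328V replicate 3, and Col3a1 takes 15.3% in WT replicate 70A.

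No collagen gene passed the test between genotypes. Of the 40 genes, 34 had enough counts to be tested with edgeR (quasi-likelihood test, Benjamini-Hochberg adjustment over all 14643 tested genes), and 0 of them had an adjusted p under 0.05, with the smallest at 0.997. That call rule was met by 0% of all genes tested. Xist, with a log2 difference of 9.72, did not meet it either (edgeR, adjusted p = 0.254). A gene that did not pass is thus not shown to be equal between the genotypes. DESeq2, run as an alternative, called 0 collagen genes against 1.05% of all genes, its smallest adjusted p for a collagen being 0.0895 for Col7a1, and limma-voom also called 0. At an unadjusted edgeR p under 0.05 there were 4 collagen genes, 11.8% of the 34, against 4.06% of all genes. They were Col15a1 and Col6a2, with higher values in G328V (1.88% of all genes met the rule on this side), and Col18a1 and Col7a1, with lower values (2.17%). The groups did not overlap for 4 tested collagens, 11.8%, where 9.70% of all genes did not, which is close to the background. These were Col15a1 and Col6a2 on the higher side (5.25% of all genes) and Col18a1 and Col17a1 on the lower side (4.45%). The median log2 difference over the 34 genes was 0.09, beside -0.00 for all tested genes, with 18 positive and 16 negative values. The summed CPM of all 40 genes was lower in G328V without overlap, at 1622 to 1901 CPM against 2381 to 3441 CPM in WT. The log2 ratio of the group means of that sum was -0.67. Col18a1 is part of the sum, with group means of 431 CPM (G328V) and 1324 CPM (WT), and without it the sums of the groups overlap. Of the class sums only that of the basement membrane chains did not overlap, and it too overlapped without Col18a1. Fewer cells of a type and less RNA per cell cannot be told apart in such libraries.

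**Figure D2:**
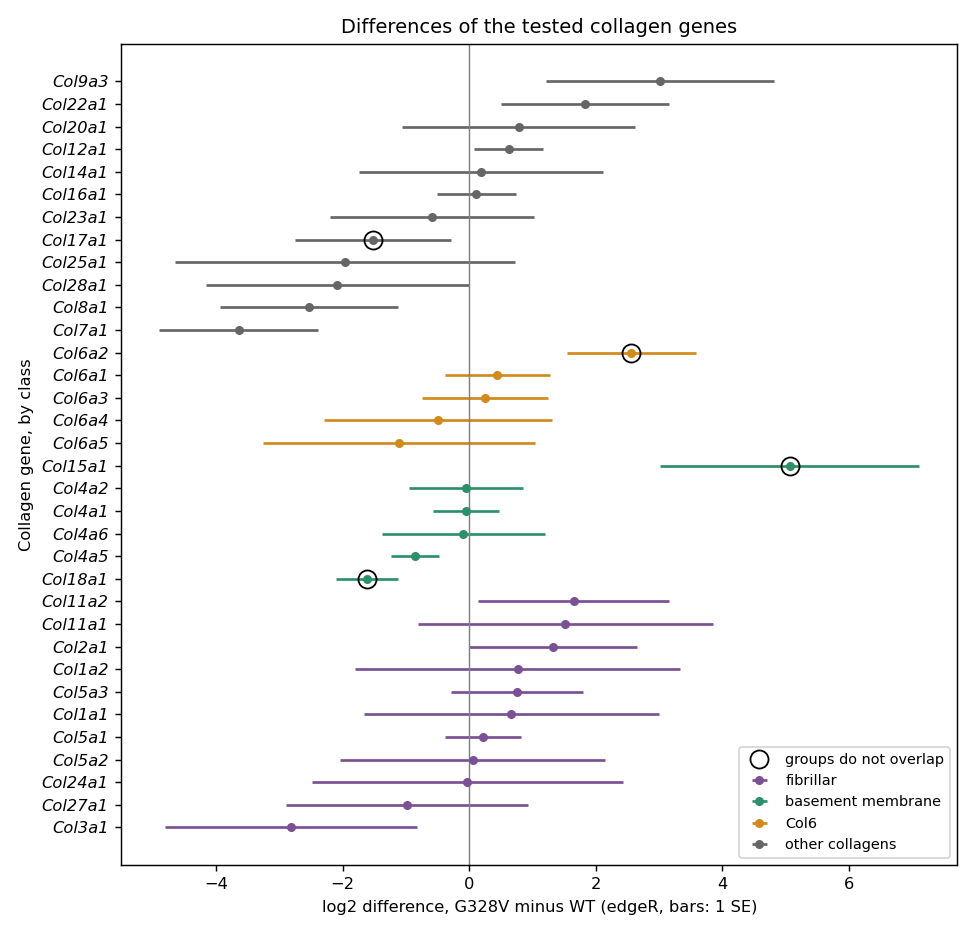
Log2 difference in expression, G328V minus WT (horizontal axis), with 1 SE from edgeR for each of the 34 tested collagen genes (vertical axis), coloured by class, with rings where the 3 values of one group lie wholly above or below those of the other. Estimates run from -3.64 for Col7a1 to 5.06 for Col15a1, and the 4 ringed genes are Col15a1, Col6a2, Col18a1 and Col17a1.

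Col18a1 was below every WT value in all 3 G328V libraries. It measured 606, 449 and 239 CPM (G328V replicates 1, 2, 3) against 1967, 773 and 1233 CPM (WT replicates 1, 3, 70A). The group means were 431 ± 184 CPM (SD, n = 3) and 1324 ± 602 CPM (SD, n = 3). The edgeR log2 difference, G328V minus WT, was -1.62 ± 0.49 as estimate ± standard error, which is the form used below (unadjusted p = 0.0154, adjusted p = 0.997), and DESeq2 gave an adjusted p of 0.197. The gene lies on chromosome 10 from 77052178 to 77166548 on the minus strand (GENCODE M21, GRCm38), with no exon of another gene over its own. Gene counts do not tell the transcripts of its 2 starts apart.

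Col15a1, which encodes the other collagen of this kind, was above every WT value in all 3 G328V libraries, with one library far above the rest. G328V replicate 1 was at 69.3 CPM, and replicates 2 and 3 were both at about 7.5 CPM (7.501 and 7.52). The WT libraries were at 0.00813, 0.17 and 2.34 CPM, from 1, 30 and 407 counts. The log2 difference was 5.06 ± 2.05 (edgeR, unadjusted p = 0.0473, adjusted p = 0.997), and DESeq2 gave an adjusted p of 0.106. An annotated antisense gene, Gm12426, shares exon sequence with Col15a1, and the use of strand in counting is not given. The neural crest and Schwann marker Sox10 was also highest in G328V replicate 1, at 65.2 CPM there and at no more than 0.0574 CPM in the other 5, and the part of such cells in the Col15a1 level of that library was not tested. Sox10 had 0 counts in G328V replicates 2 and 3. Without G328V replicate 1 the edgeR difference of Col15a1 was 3.16, and without WT replicate 70A it was 8.26.

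The collagen IV chains that form the ubiquitous network did not separate the genotypes. Col4a1 measured 163, 347 and 303 CPM (G328V) against 119, 311 and 415 CPM (WT), a log2 difference of -0.05 ± 0.52. Col4a2 measured 184, 212 and 423 CPM (G328V) against 30.2, 399 and 420 CPM (WT), a log2 difference of -0.05 ± 0.90. The low value of Col4a2 belongs to WT replicate 1, where Col4a1 was lowest too, but less so. Both genes overlap each other at their starts on opposite strands, and Col4a2 also overlaps the antisense gene Gm15419. Per length, Col4a1 stood at 3.84 times Col4a2 in that library and at 0.698 to 1.60 times in the other 5. The protein is a trimer of more than 1 Col4a1 chain to each Col4a2 chain, and the transcripts did not keep a fixed ratio across these libraries.

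Col4a5 and Col4a6 encode the alpha5 and alpha6 chains and are neighbours on the X chromosome, with starts 1343 bases apart on opposite strands. Col4a5 measured 83.4, 135 and 125 CPM (G328V) against 189, 303 and 132 CPM (WT). Its groups overlapped only through WT replicate 70A, and the log2 difference was -0.86 ± 0.38 (edgeR, unadjusted p = 0.061). Col4a6 measured 179, 2.30 and 233 CPM (G328V) against 109, 245 and 87.4 CPM (WT), a log2 difference of -0.09 ± 1.29. G328V replicate 2 thus held almost no Col4a6 while its Col4a5 was within the range of the others, and Col4a5 stood at 59.6 times Col4a6 per length there against 0.473 to 1.77 times elsewhere. Col4a3 and Col4a4, chains of the kidney and lung membranes, stayed at no more than 0.396 CPM and were not tested.

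Summed over its 8 chains, the basement membrane class measured 1285, 1152 and 1331 CPM (G328V) against 2414, 2032 and 2291 CPM (WT), which do not overlap. Without Col18a1 the sums were 679, 703 and 1092 CPM and 447, 1258 and 1057 CPM, which do. The log2 ratio of group means went from -0.84 with Col18a1 to -0.16 without it. The class median of log2 differences was -0.07 (0.060 with library totals alone), with 1 of 6 tested chains positive under TMM scaling, whereas with library totals alone Col4a1, Col4a2 and Col4a6 were positive too, at 0.081, 0.093 and 0.040.

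**Figure D3:**
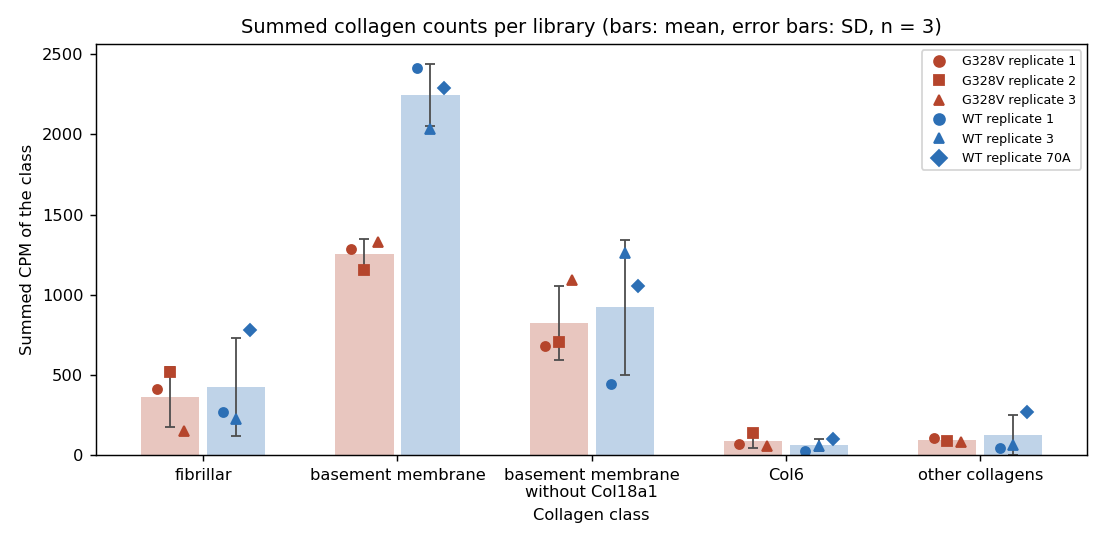
Summed CPM of each collagen class (vertical axis) in each library, as points, with bars for the mean of 3 libraries and error bars for the SD, for G328V and WT (horizontal axis: class, with the basement membrane class also drawn without Col18a1). The basement membrane sums lie at 1152 to 1331 CPM (G328V) against 2032 to 2414 CPM (WT), and without Col18a1 they overlap.

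In collagen VI, whose alpha1, alpha2 and alpha3 chains assemble in equal numbers, the alpha2 transcript differed most. Col6a2 measured 13.8, 12.9 and 6.23 CPM (G328V) against 0.926, 0.381 and 4.26 CPM (WT), so the groups did not overlap. Its log2 difference was 2.56 ± 1.02 (edgeR, unadjusted p = 0.0444, adjusted p = 0.997), and 4.06 without WT replicate 70A. Col6a1 measured 43.6, 96.7 and 27.3 CPM (G328V) against 24.01, 12.2 and 86.7 CPM (WT), with a log2 difference of 0.45 ± 0.82. Col6a3, the longest chain, measured 8.08, 28.6 and 16.04 CPM (G328V) against 1.84, 31.4 and 11.1 CPM (WT), a log2 difference of 0.25 ± 0.99. Per length, Col6a1 stood at 4.62, 11.02 and 6.42 times Col6a2 in G328V and at 38.0, 46.8 and 29.9 times in WT, groups that do not overlap, in a ratio that was chosen after its values were seen. The ratio of Col6a1 to Col6a3 ran from 1.03 to 34.5 and overlapped. Col6a4 and Col6a5, chains that can take the place of alpha3, overlapped between groups, with up to 16.3 CPM for Col6a4 in WT replicate 3 and at most 50 counts for Col6a5.

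**Figure D4:**
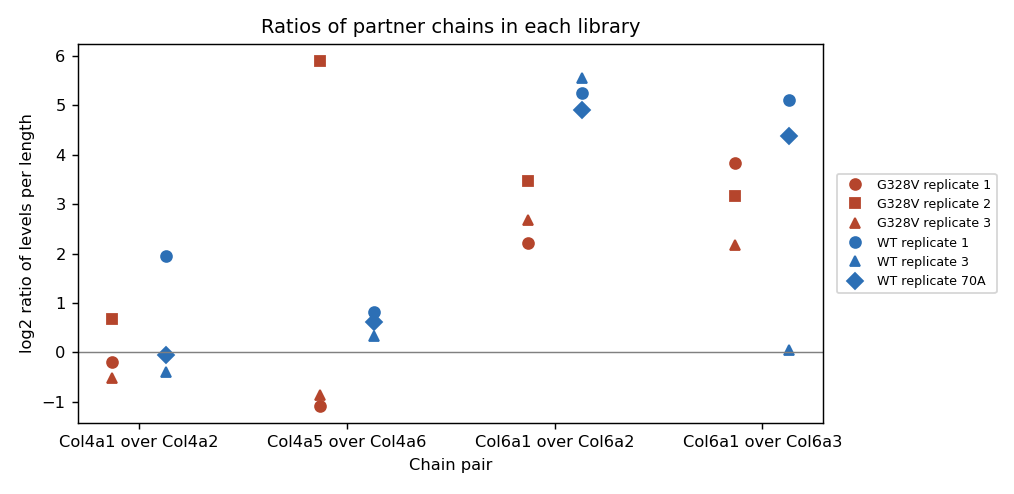
Log2 ratio of levels per length of partner chains (vertical axis) in each library, for 4 chain pairs (horizontal axis), with 0 meaning equal levels. The ratio of Col6a1 to Col6a2 lies at 2.21 to 3.46 in G328V and at 4.90 to 5.55 in WT, while 1 library stands apart for Col4a1 over Col4a2 (WT replicate 1, 1.94) and for Col4a5 over Col4a6 (G328V replicate 2, 5.90).

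None of the 11 fibrillar chains separated the genotypes, and most varied widely within each. Col5a1, which encodes the chain common to most collagen V trimers that start fibrils, varied least of those with at least 10 CPM, with 107, 430 and 126 CPM (G328V) against 126, 195 and 247 CPM (WT), a log2 difference of 0.22 ± 0.60. Its partner Col5a2 measured 100.3, 18.96 and 3.02 CPM (G328V) against 90.3, 0.0114 and 27.3 CPM (WT). WT replicate 3 held 2 counts of Col5a2 beside 34387 of Col5a1. Col5a3, an alternative partner, measured 51.0, 40.0 and 2.37 CPM (G328V) against 7.83, 17.8 and 29.6 CPM (WT), a log2 difference of 0.76 ± 1.04.

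Col3a1, the chain of collagen III of distensible tissues, was at 455 CPM in WT replicate 70A and at no more than 46.2 CPM in any other library. The G328V libraries measured 46.2, 20.2 and 0.74 CPM, and WT replicates 1 and 3 measured 5.92 and 11.2 CPM. Its log2 difference of -2.81 ± 1.99 turned to 1.39 without WT replicate 70A. Col5a2, its neighbour on chromosome 1, was not highest in that library. Fibroblast matrix genes Dcn and Lum were at 0.0977 and 0.167 CPM there, and Pdgfrb, of mural and fibroblast cells, at 43.2 CPM, against 75.9 CPM in G328V replicate 2.

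Col11a1, of collagen XI, which joins collagen II fibrils of cartilage, ranged from 6 counts in WT replicate 3 to 16706 in G328V replicate 1. The 6 levels were 97.4, 0.108 and 19.2 CPM (G328V) against 35.1, 0.0341 and 5.46 CPM (WT). The log2 difference was 1.52 ± 2.32, and -0.49 without G328V replicate 1. Col2a1 measured 3.85, 1.71 and 0.946 CPM (G328V) against 0.0488, 1.19 and 1.36 CPM (WT), with a log2 difference of 1.33 ± 1.33. Col11a2 was at no more than 1.71 CPM, with a log2 difference of 1.65 ± 1.505. Col24a1 and Col27a1, fibrillar chains of development, stayed at no more than 4.98 CPM and overlapped. The class median was 0.67, with 8 of 11 values positive and 0 at an unadjusted p under 0.05. That median was 0.18 without WT replicate 1 and also without WT replicate 3, 0.20 without G328V replicate 1 and 1.39 without WT replicate 70A.

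Among the other collagens Col7a1 and Col8a1 were highest in WT replicates 70A and 3. Col7a1, the anchoring fibril collagen of skin, measured 2.90, 4.08 and 0.859 CPM (G328V) against 2.32, 25.6 and 69.7 CPM (WT), and WT replicate 1 lay within the G328V range. The log2 difference was -3.64 ± 1.25 (edgeR, unadjusted p = 0.0264, adjusted p = 0.997). Col8a1, a network-forming chain of vessel walls, measured 2.05, 1.89 and 4.10 CPM (G328V) against 0.431, 7.32 and 38.6 CPM (WT), a log2 difference of -2.53 ± 1.40. Without WT replicate 1, DESeq2 called both genes lower in G328V, Col7a1 at -4.19 (adjusted p = 9.69e-05) and Col8a1 at -3.10 (adjusted p = 0.0125), and Col15a1 higher at 4.49 (adjusted p = 0.0342), while it called 4.63% of all genes. Without WT replicate 70A, the edgeR difference of Col8a1 shrank to -0.54 and that of Col7a1 to -2.43, and DESeq2 called neither. Cdh5, an endothelial cadherin, was highest in the same libraries, WT replicates 3 and 70A, with 12.1 and 38.7 CPM, and reached no more than 1.09 CPM elsewhere, with Pecam1 at no more than 0.972 CPM and Tie1 at 0 counts in both. The endothelial markers Kdr, Tek and Pecam1 were instead lowest in WT replicate 70A, at 0.586, 0.0689 and 0.132 CPM. Kdr was highest in G328V replicate 1 (17.4 CPM), with 9.58 CPM in WT replicate 3. The part of endothelial cells in the Col7a1 and Col8a1 levels was not tested.

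Col23a1, a membrane-spanning collagen, measured 38.6, 10.1 and 2.05 CPM (G328V) against 1.43, 3.55 and 71.0 CPM (WT), a log2 difference of -0.58 ± 1.61 that became 2.76 without WT replicate 70A. Col16a1, a FACIT chain, was within 19.3 to 80.0 CPM in all libraries, with a log2 difference of 0.11 ± 0.62. Col12a1, a FACIT chain that averaged under 10 CPM, varied least of the chains above 1 CPM in every library, at 3.21 to 8.96 CPM. The collagen IX genes Col9a1 and Col9a3, FACIT chains of cartilage, were almost confined to G328V replicate 1, at 17.2 and 12.7 CPM, against at most 0.163 and 1.13 CPM in the other 5 libraries, and Col9a2 had 26 counts there. Col9a1 did not pass the filter on low counts. The log2 difference of Col9a3 was 3.02 ± 1.80, and -0.51 without that library. The neural crest and Schwann markers Sox10 and Erbb3 were highest in the same library, at 65.2 and 25.5 CPM, and their part in these levels was not tested. Col17a1, a membrane-spanning collagen of epithelia, did not overlap between groups but stayed at or under 0.517 CPM, with a log2 difference of -1.52 ± 1.23. The remaining tested chains, Col14a1, Col20a1, Col22a1, Col25a1 and Col28a1, overlapped between groups. Col8a2 and Col10a1, network-forming chains, had at most 8 and 7 counts in any library and were not tested. Exons on the opposite strand also overlap Col9a3 (Tcfl5), Col10a1 (Nt5dc1), Col5a1 (2810430I11Rik and Gm13372), Col6a4 (Gm36993 and Gm47575), Col22a1 (Gm16308) and Col4a3 (C430014B12Rik). Without the strand setting those counts are uncertain.

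**Figure D5:**
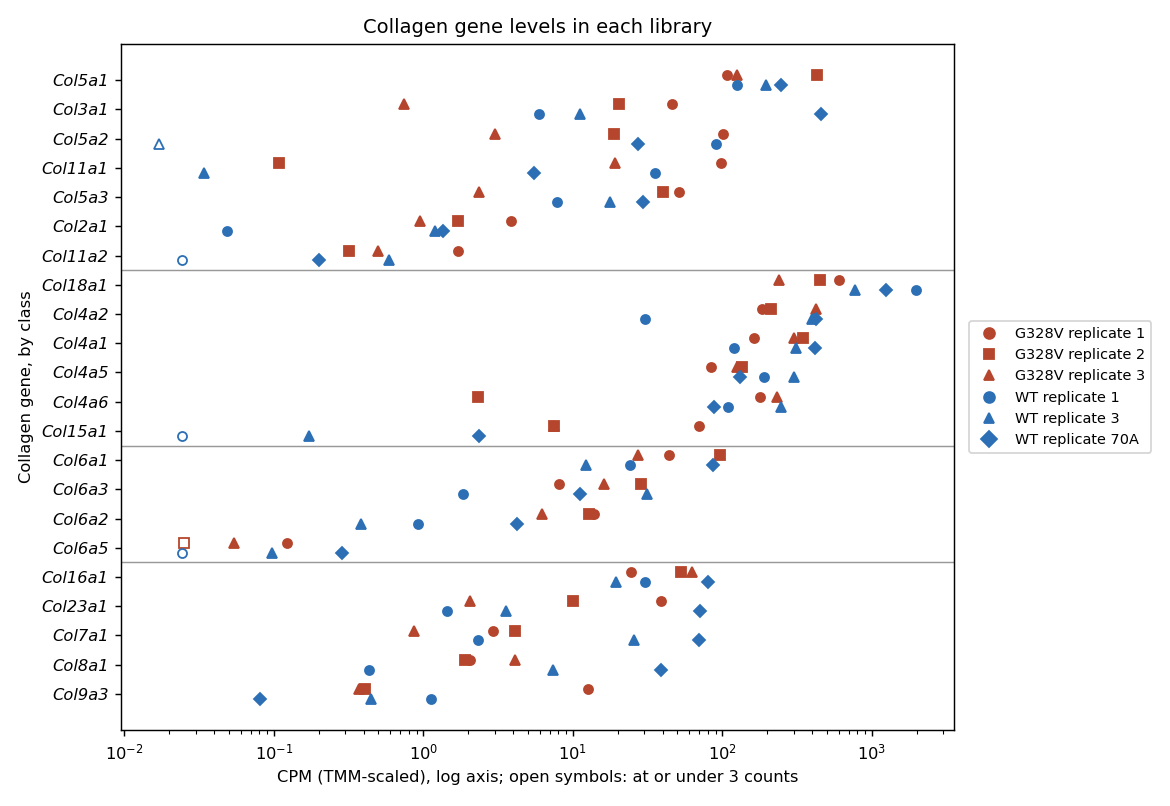
CPM of the 22 collagen genes named by the rule (vertical axis, by class) in each library, on a log axis (horizontal axis), with G328V and WT drawn apart and open symbols at the level of 3 counts where a library had no more than that. Col4a1 and Col4a5 stay within a narrow part of the axis, Col18a1 runs from 239 to 1967 CPM, and Col11a1, Col5a2 and Col3a1 spread over several powers of 10.

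Collagen genes that averaged at least 10 CPM varied between the 6 libraries more than most tested genes above that cut. The 2 sets were not matched for level. The SD of log2(CPM + 0.5) over all libraries had a median of 1.52 for the 16 collagens with at least 10 CPM on average, and of 0.47 for the 9386 tested genes with at least 10 CPM. It ran from 0.63 for Col4a5 to 3.11 for Col11a1. WT replicate 70A held the highest value of 13 of the 34 tested collagens, against 10.8% of all tested genes, and G328V replicate 1 that of 8, against 13.6%. WT replicate 1 held the highest value of 1 collagen, Col18a1, against 23.1% of all genes.

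No gene of the lists that modify and fold collagen chains passed the test. Of 20 hydroxylases, glycosyltransferases and chaperones tested, 8 had positive and 12 negative differences, with a median of -0.02, and 0 passed edgeR or DESeq2. Serpinh1, the collagen chaperone of the endoplasmic reticulum, measured 475, 1374 and 511 CPM (G328V) and 815 and 394 CPM (WT replicates 3 and 70A), but 2.28 CPM in WT replicate 1, the library with the highest Col18a1. P4ha2 and Fkbp10, a prolyl hydroxylase subunit and a prolyl isomerase, were lowest there as well, at 2.55 and 7.58 CPM; these 3 genes were picked after their values were seen. Of those named by the smallest unadjusted p, Leprel4 differed by -1.44 ± 0.61, Leprel2, a prolyl 3-hydroxylase, by 1.22 ± 0.59, and P4ha3, a prolyl 4-hydroxylase subunit, by 3.44 ± 2.19. Leprel2 was the 1 gene of the list whose groups did not overlap, at 10.6 to 11.9 CPM in the mutant libraries and 1.96 to 6.60 CPM in the wild-type ones. That is 5% of the list, where 9.70% of all tested genes did not overlap.

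Of 7 tested genes that cleave or assist the cleavage of procollagen ends, 2 had positive and 5 negative differences, with a median of -0.51, and 0 passed. Adamts14, an N-propeptidase, was at 39.2 to 100.03 CPM (G328V) against 84.2 to 170 CPM (WT), with a log2 difference of -0.71 ± 0.44. Pcolce, an enhancer of C-propeptide cleavage, differed by -1.09 ± 0.90. Adamts2 had 0, 14 and 0 counts in G328V and was at no more than 0.447 CPM in WT. Of 7 tested receptors, 4 were positive and 3 negative, with a median of 0.00 and 0 calls. Ddr2, a receptor kinase for fibrillar collagen, was at 293 to 335 CPM in G328V and 268 to 367 CPM in WT. Ddr1, which also binds collagen IV, differed by -0.49 ± 0.73, and Itga1, a collagen-binding integrin chain, by 0.71 ± 0.72. Itga11, another integrin chain, did not overlap, at 0.462 to 1.26 CPM in G328V and at most 0.172 CPM in WT, with a log2 difference of 3.45 ± 1.84. It was 1 of the 7 tested receptors (14.3%), where 9.70% of all tested genes did not overlap.

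Among 8 tested collagen-binding matrix genes, 4 were positive and 4 negative, with a median of -0.62. DESeq2 called 1 of them, where it called 1.05% of all genes, and edgeR called 0. Sparc, a matrix glycoprotein that binds fibrillar collagen and collagen IV, measured 944, 1212 and 750 CPM (G328V) against 3838, 1627 and 2060 CPM (WT). These groups do not overlap, which held for 2 of the 8 tested genes of the list (25%) and for 9.70% of all tested genes. The WT libraries had the same order for Sparc as for Col18a1, with replicate 1 highest and replicate 3 lowest. In G328V the order differed, with replicate 1 highest for Col18a1 and replicate 2 highest for Sparc. The log2 difference of Sparc was -1.37 ± 0.40 (edgeR, unadjusted p = 0.0137, adjusted p = 0.997). Tnxb, a tenascin that spaces collagen fibrils, measured 0.332, 0.291 and 0.0326 CPM (G328V) against 1.37, 11.9 and 6.96 CPM (WT). It was the gene that DESeq2 called (adjusted p = 0.00154, log2 difference -4.96), while edgeR gave -4.94 ± 1.35 with an adjusted p of 0.997. Exons of the pseudogene Cyp21a2-ps lie over those of Tnxb on the opposite strand. Thbs1, a matricellular protein, had a log2 difference of -2.12 ± 0.96, and was at 212 CPM in WT replicate 70A alone against 11.9 to 35.3 CPM elsewhere.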

How the data were processed

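Total RNA was depleted of ribosomal RNA and made into stranded libraries, per the labels' protocols. The authors deposited whole-number counts per gene symbol (1 column per library, unnormalised) and, in a second table, estimated counts of fragments per gene. The submitters' processing notes name mm10, FastQC 0.11.3, TopHat2 2.0.13 and Bowtie2 2.2.1. Their roles, the annotation and the strand setting were not given in the sources used here. Deposited counts were about 1.96 times the estimated counts (median over collagen values with at least 50 fragments). The ratio ran from 0 (Col10a1 in WT replicate 1, with 69 estimated fragments) to 2.04. It was 0.829 for Col17a1 in WT replicate 70A and 1.15 for Col23a1 in WT replicate 1. The members and lists were chosen with earlier results of these data known.

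From the counts, edgeR 4.0.16 (R 4.3.3) was run with TMM scaling, filterByExpr (minimum count 10), a robust quasi-likelihood fit of the 3 against 3 libraries and Benjamini-Hochberg adjustment over 14643 genes. DESeq2 1.42.0, limma 3.58.1 (voom), other scalings and filters, the estimated counts (rounded), leaving out each library and a block on replicate numbers were alternatives. The procedure was tested on simulated data. Genes were named if they averaged at least 10 CPM, plus the 3 smallest unadjusted p per class and related list; other named genes were chosen after their values were seen. Levels per length used merged exons of GENCODE M21 for 15767 of 17551 genes. Floors of 3 counts cover counting error only. Same-numbered libraries of the groups deviated together with r of 0.169 (number 1) and 0.247 (number 3), which are 2 pairs only, so the numbers were not taken as pairing. Some marker genes, and the summed level of their list, are not reported here.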

Additional observations from a re-analysis of the deposited data

Results flagged for a closer look

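The table of estimated fragment counts lists 3 collagen genes that the count table does not. Col13a1 is listed at 0 in all 6 libraries, and each of the others has a few fragments in 1 library. Col19a1, a FACIT chain, had 9 estimated fragments in G328V replicate 1 and 0 in the other 5 libraries, mutant ones included. Col6a6, a chain of collagen VI that can take the place of alpha3, had 12 estimated fragments in G328V replicate 2 and 0 in the other 5. Neither was tested.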

How the results depend on the processing

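edgeR called 0 collagen genes in every setting run. With all 6 libraries DESeq2 called 173 genes and 0 collagens. With 1 library left out it called 272 to 727 genes and 0 to 3 collagens. These were Col28a1 (-6.54, adjusted p = 0.00139; 2.07% of all genes called) without G328V replicate 3, Col15a1, Col7a1 and Col8a1 (4.63%) without WT replicate 1, and Col15a1 (8.27) and Col6a2 (4.04; 2.38%) without WT replicate 70A. Collagens whose groups did not overlap numbered 4 to 8 with 1 library left out, where the background was 16.8% to 23.4%. The basement membrane sum ratio was -0.16 without Col18a1, and that of the other collagens ran from -0.85 to 0.75, positive without WT replicate 70A. Medians of log2 differences with 1 library left out ran from -0.12 to 0.75 (all collagens), -0.29 to 1.41 (collagen VI), 0.18 to 1.39 (fibrillar), -0.52 to 0.13 (basement membrane) and -0.85 to 0.75 (other collagens). With the replicate block, in the 4 libraries numbered 1 and 3, they were 0.71 (all), 1.012 (collagen VI), 2.91 (fibrillar) and 0.70 (other), and in those 4 libraries without the block 0.50 (all), 0.85 (collagen VI), 1.46 (fibrillar) and 0.24 (other). The block called no collagen.

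Of 538 alternative values of 34 named genes, 49 had the other sign, and 19 genes had none; 1 value passed the threshold, Tnxb by DESeq2. With library totals Col4a1 was 0.081, Col4a2 0.093 and Col4a6 0.040. With limma-voom Col23a1 was 0.11, Col4a1 0.041, Col4a2 0.54, Col5a1 -0.048 and Col5a3 -0.14. With the replicate block Col23a1 was 1.98, Col4a1 0.21, Col4a2 1.34, Col4a6 0.32, Col5a1 -0.44, Col5a3 -0.10, Col6a5 2.16 and Col8a1 0.70. In the 4 libraries without the block Col23a1 was 3.03, Col3a1 1.46, Col4a1 0.12, Col4a2 0.50, Col4a6 0.22, Col5a1 -0.47, Col6a3 -0.46 and Col6a5 0.85. With 1 library left out the ranges were -0.49 to 3.81 (Col11a1), -0.26 to 0.91 (Col16a1), -2.06 to 2.76 (Col23a1), -3.91 to 1.39 (Col3a1), -0.44 to 0.33 (Col4a1), -0.60 to 0.34 (Col4a2), -0.70 to 0.49 (Col4a6), -0.70 to 0.55 (Col5a1), -1.83 to 1.56 (Col5a2), -0.21 to 1.61 (Col6a1), -0.29 to 1.41 (Col6a3), -2.18 to 0.28 (Col6a5) and -0.51 to 4.08 (Col9a3). The causes were not tested. Chains under 1 CPM rest on few counts.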
